A study of Mus musculus with 2 samples.

Results

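The nuclear factor I genes Nfia, Nfib, Nfic and Nfix were followed across the cell classes of the mouse lateral hypothalamic area. They are 4 of the 28692 genes counted in the files, were taken by symbol, and were all found. The assay was droplet single-cell 3' RNA sequencing on the 10x Genomics Chromium system with v2 chemistry, in which a transcript is counted once through its unique molecular identifier (UMI). Tissue came from C57BL/6 mice at postnatal day 30, all from a single litter and none treated or genetically altered, as far as the labels say. There were 2 libraries, the library labelled male, a pool of 3 animals, and the library labelled female, a pool of 2 animals. Paired values are those of the library labelled male and of the library labelled female. The 4 genes were selected on their measured UMI levels across these classes, so the levels are described without a test. Tests were made on other genes, between neurons with many and with few UMIs of the family.

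Nuclear factor I proteins are transcription factors with a conserved amino-terminal domain for DNA binding and dimer formation. They bind, as homodimers or heterodimers, a palindrome made of the half-site TTGGC and its complement, and can also bind a single half-site. In the developing brain NFIA and NFIB are known for the onset of astrocyte formation after the neurogenic period, and NFIX for the timing of neural stem and progenitor cells. In several regions of the developing central nervous system the family also marks neurons that are born late, where factors such as Zfhx3, Onecut2 and Neurod2 have been described as marks of birth order.

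In GRCm38 with the GENCODE M21 annotation, Nfia lies at chr4:97772734-98118874 on the plus strand and Nfib at chr4:82290173-82705750 on the minus strand. Nfic lies at chr10:81396186-81455635 and Nfix at chr8:84699876-84800344, both on the minus strand. Each overlaps annotated genes on the other strand: E130114P18Rik for Nfia, Gm11266 and Gm11269 for Nfib, Gm16104 for Nfic, and Lyl1 and G430095P16Rik for Nfix. The use of strand in counting is not given in the sources used here, so reads of these partners may be split or shared.

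The libraries held 3439 and 3793 barcodes, with medians of 5718 and 6289 UMIs, and 18 barcodes occurred in both. Filtering and doublet removal left 3186 and 3520 cells. The labels disagree with the sex-linked genes: Xist had 20641 UMIs in the library labelled male and 30 in the library labelled female, and Ddx3y had 0 and 4524. The labels therefore serve only to name the libraries. Cells were clustered with the 4 genes left out and named from marker lists, hence "-like". Astrocyte-like cells numbered 119 and 185, oligodendrocyte precursor-like cells 76 and 88, and there were 74 and 104 newly formed and 609 and 595 mature oligodendrocyte-like cells, 144 and 149 endothelial-like, 11 and 34 mural-like, 23 and 33 fibroblast-like, 70 and 40 microglia-like, and 2041 and 2268 neuron-like cells. The markers of each class were all detected in it, except 1 of 10 mural markers in the library labelled male. The summed astrocyte markers stood at 25790 and 27260 CPM (UMIs of a gene over all UMIs of the group, on the usual CPM scale) in astrocyte-like cells. Neuron markers summed to 823 and 3199 CPM in microglia-like cells, beside 31500 and 10920 CPM of their own markers, and to 1096 and 4010 CPM in mural-like cells, beside 18970 and 8256 CPM of theirs, and their part in the members' levels there was not tested. The endothelial-like cluster is not free of mural RNA: 83.3% and 80.5% of its cells held 2 or more UMIs of mural markers.

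Among the named classes the family was highest in astrocyte-like cells and lowest in neurons. An unnamed cluster of 5 and 7 cells led by Ube2c had 1158 and 1426 CPM of the family. Another unnamed cluster, of 14 and 17 cells and led by Fgfr3, had 1191 and 1019.5 CPM. Summed over the 4 genes, astrocyte-like cells had 1026 and 1031 CPM (1029 ± 3.44, SD, n = 2 libraries), against 87.9 and 102 CPM in neuron-like cells (95.2 ± 10.3). The level in astrocyte-like cells was 11.7-fold and 10.1-fold that in neuron-like cells. The ratio was not even across the family: Nfia was 31.5-fold and 22.8-fold higher in astrocyte-like cells, Nfib 17.2-fold and 18.2-fold, Nfix 10.7-fold and 12.1-fold, and Nfic only 3.37-fold and 2.54-fold. Mean and SD here describe 2 pools of littermates, and the depth of a class sets the counting error; astrocyte-like cells of the library labelled male held 132 Nfia UMIs, a 95% exact Poisson interval of 377 to 534 CPM.

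Nfia, the member best known from astrocyte formation, had its highest level among the named classes in astrocyte-like cells, at 450 and 407 CPM. Oligodendrocyte precursor-like cells came next at 287 and 310 CPM, then fibroblast-like cells at 239 and 230 CPM. Endothelial-like cells (203 and 183 CPM), mural-like cells (209 and 151 CPM) and mature oligodendrocyte-like cells (160 and 172 CPM) followed, endothelial-like overlapping mural-like cells and these overlapping mature oligodendrocyte-like cells. Newly formed oligodendrocyte-like cells had 107 and 78.3 CPM and overlapped microglia-like cells at 80.7 and 66.9 CPM. Neurons lay lower, at most at 23.7 CPM, in the gate with neither transporter. The values of the first 3 classes did not overlap each other or those below. Exact Poisson intervals of fibroblast-like cells (159 to 346 and 156 to 326 CPM) overlapped those of precursor-like cells (214 to 377 and 240 to 393 CPM). They also overlapped those of endothelial-like cells (169 to 243 and 152 to 218 CPM). In the library labelled female, the interval of astrocyte-like cells (354 to 465 CPM) overlapped that of precursor-like cells.

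Nfib stood at similar levels in oligodendrocyte precursor-like cells (282 and 301 CPM) and astrocyte-like cells (286 and 295 CPM), whose values overlapped. Endothelial-like cells had 232 and 269 CPM, below both classes in each library, and fibroblast-like cells 197 and 171 CPM. Exact Poisson intervals of endothelial-like cells ran from 195 to 275 and from 231 to 311 CPM. They overlapped those of precursor-like cells (210 to 370 and 232 to 382 CPM) and astrocyte-like cells (228 to 355 and 250 to 345 CPM). The lower rank of endothelial-like cells thus lay within counting error. Mural-like cells, few in number, had 209 and 78.7 CPM. In microglia-like cells Nfib was not seen (0 UMIs, 70 cells) in the library labelled male, where 3 counts would have been 16.1 CPM, and stood at 36.0 CPM (7 UMIs) in the library labelled female.

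Nfic, the member with the smallest range over classes, was highest in fibroblast-like cells (282 and 215 CPM) and endothelial-like cells (244 and 238 CPM), which overlapped. Astrocyte-like cells had 147 and 133 CPM and mature oligodendrocyte-like cells 125 and 130 CPM. Oligodendrocyte precursor-like cells had 55.2 and 54.6 CPM, within or beside the range of excitatory neurons (47.5 and 59.9 CPM) and inhibitory neurons (49.1 and 55.0 CPM). For no other member did a glial class of the oligodendrocyte lineage overlap the neuron gates.

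Nfix was the member with its highest level among the named classes in mature oligodendrocyte-like cells, at 252 and 305 CPM. Oligodendrocyte precursor-like cells had 215 and 250 CPM, astrocyte-like cells 143 and 197 CPM, and fibroblast-like cells 162 and 119 CPM, which overlapped the astrocyte-like values. Newly formed oligodendrocyte-like cells (83.8 and 76.7 CPM), endothelial-like cells (61.0 and 81.2 CPM) and mural-like cells (78.3 and 54.5 CPM) could not be separated.

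**Figure D1:**
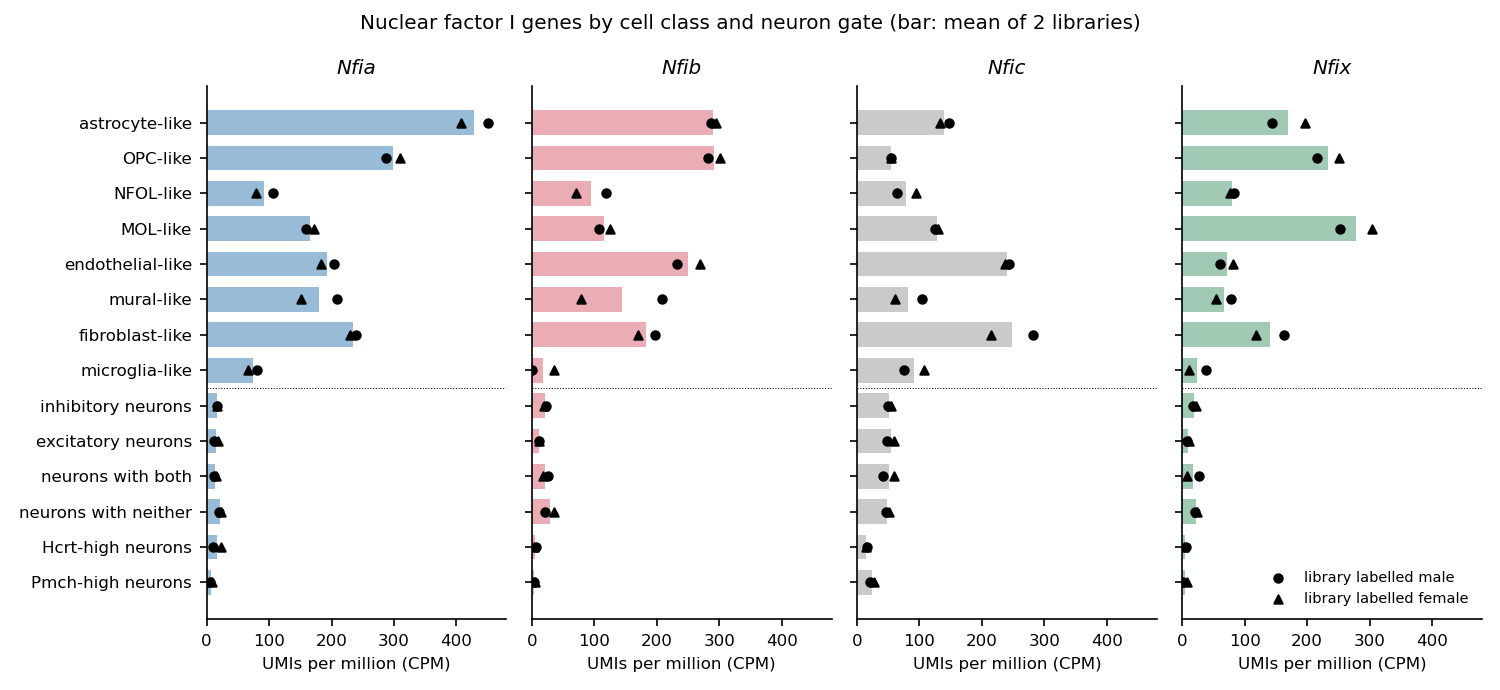
CPM of each gene (x axis) by cell class and neuron gate (y axis, glial, vascular and microglial classes above the dotted line, neurons below); circles are the library labelled male, triangles the library labelled female, bars their mean. Nfia leads in astrocyte-like cells at 450 and 407 CPM, Nfix in mature oligodendrocyte-like (MOL-like) cells at 252 and 305 CPM, and Nfic in fibroblast-like and endothelial-like cells; OPC-like and NFOL-like are oligodendrocyte precursor-like and newly formed oligodendrocyte-like cells.

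Along the oligodendrocyte lineage Nfia and Nfix were lowest in the middle stage in both libraries. Nfia had 287 and 310 CPM in precursor-like, 107 and 78.3 CPM in newly formed and 160 and 172 CPM in mature oligodendrocyte-like cells. Nfix had 215 and 250, then 83.8 and 76.7, then 252 and 305 CPM over the same stages. Nfib had 282 and 301, then 118 and 70.2, then 107 and 126 CPM, so that its last 2 stages overlapped. Nfic had 55.2 and 54.6, then 63.6 and 94.6, then 125 and 130 CPM. Its first value in the library labelled male rests on 10 UMIs, with a 95% exact Poisson interval of 26.5 to 102 CPM, which covers the value of newly formed cells there. Depth differs over these stages, since precursor-like cells had medians of 2276 and 2425 UMIs and newly formed ones 4439 and 5169. With each cell thinned to 2000 UMIs, Nfix was still seen in 33.8% and 39.8% of precursor-like, 16.2% and 15.4% of newly formed and 40.2% and 45.2% of mature cells. Nfic was then seen in 8.11% and 7.95% of precursor-like, 8.11% and 20.2% of newly formed and 22.5% and 23.0% of mature cells, so its first stages were alike in the library labelled male.

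The make-up of the family in a class followed from these patterns. Nfia gave 43.9% and 39.4% of family UMIs in astrocyte-like cells, and Nfix 39.2% and 41.6% in mature oligodendrocyte-like cells. Nfic gave 6.58% and 5.97% in precursor-like cells, against 46.1% and 48.6% in inhibitory and 60.7% and 59.2% in excitatory neurons. In endothelial-like cells Nfix gave 8.24% and 10.5%. The endothelial-like cells were also split by mural RNA. Nfib had 227 and 268 CPM in cells with 2 or more mural UMIs, against 276 and 273 CPM in cells with fewer. Nfia had 211 and 192 CPM in cells with 2 or more, against 145 and 137 CPM in those with fewer, and Nfic 249.5 and 231 CPM, against 203 and 273 CPM. Nfix had 69.1 and 77.5 CPM in cells with 2 or more, against 0 and 100.2 CPM in the 24 and 29 cells with fewer. Nfia was thus higher in both libraries in the cells with more mural RNA, and Nfic and Nfix went in opposite directions in the libraries. No counting interval was taken for the 24 and 29 cells, so the counting error of these differences was not assessed.

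In neuron-like cells Nfia had 14.3 and 17.8 CPM, Nfib 16.7 and 16.2 CPM and Nfix 13.4 and 16.2 CPM, while Nfic had 43.5 and 52.3 CPM. Free RNA of glia was present in the same cells. In inhibitory neurons the astrocyte genes Agt, Aqp4 and Gja1, which neurons should lack, stood at 0.591%, 0.577% and 0.456% of their astrocyte-like level in the library labelled male and at 0.828%, 0.592% and 0.604% in the library labelled female. All 14 genes of the astrocyte list together, some of which neurons also express, stood at 2.58% and 2.64%, and the 12 oligodendrocyte genes at 1.20% and 1.55% of their mature oligodendrocyte-like level. Against these, Nfia in inhibitory neurons stood at 3.83% and 4.22% of its astrocyte-like level, Nfib at 7.87% and 6.55%, Nfix at 12.4% and 11.1%, and Nfic at 33.5% and 41.4%. In excitatory neurons Nfia stood at 2.73% and 4.49% and Nfib at 3.86% and 3.85%. In both gates all 4 members lay above the 3 astrocyte genes by this measure. The part of free RNA in these low values was not tested.

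Between the main neuron gates, inhibitory neurons (Slc32a1 UMIs and none of Slc17a6) had 107 and 113 CPM of the family, against 78.3 and 101 CPM in excitatory neurons (the reverse), ratios of 1.36 and 1.12. Nfix and Nfib were higher in inhibitory neurons in both libraries. Nfix had 17.7 and 21.8 CPM in inhibitory and 7.38 and 11.7 CPM in excitatory neurons, ratios of 2.40 and 1.87, and Nfib had 22.5 and 19.3 CPM in inhibitory and 11.1 and 11.4 CPM in excitatory neurons, ratios of 2.04 and 1.70. Nfia, with ratios of 1.40 and 0.941, and Nfic, with 1.03 and 0.919, went in opposite directions in the 2 libraries. Without the cluster led by Lhx6, described next and left out after its values were seen, the ratio of the family between the gates was 0.999 over both libraries, against 1.23 with it. Of the neuron groups set by transporter or peptide RNA, the family was lowest in those rich in hypocretin or melanin-concentrating hormone RNA. Neurons rich in hypocretin RNA (Hcrt-high) had 38.6 and 43.5 CPM, and those rich in melanin-concentrating hormone RNA (Pmch-high) 30.7 and 50.9 CPM. They were also the deepest of these groups (medians of 16101 and 18593 UMIs, and of 14237 and 12947 UMIs). Of these groups, Nfic was lowest in the same neurons, at 15.8 and 14.0 CPM in Hcrt-high and 20.2 and 27.3 CPM in Pmch-high neurons. Among neuron clusters, the one led by Nts had 36.9 and 40.3 CPM of the family, so such levels were not particular to these neurons. A cluster of 4 and 6 neurons led by Hdc was deeper, with a median of 29710 UMIs.

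Neuron clusters differed in Nfia, Nfib and Nfix more than the gates did. The cluster led by Lhx6, a LIM homeobox factor of GABA neurons, held 396 and 438 cells and had 29.0 and 28.6 CPM of Nfia, 39.6 and 39.1 CPM of Nfib and 38.5 and 49.5 CPM of Nfix. The mixed cluster led by Ebf1 followed with 35.3 and 32.2 CPM of Nfib and 24.9 and 24.6 CPM of Nfix, and the excitatory cluster led by Ebf3 with 27.7 and 45.6 CPM of Nfib. At the other end, the cluster led by Synpr had 2.70 and 0 CPM of Nfib, and the cluster led by Nts had 2.46 and 2.12 CPM of Nfia. Nfic had another order: the cluster led by Tac2 had 78.4 and 81.2 CPM, with only 3.65 and 3.32 CPM of Nfib, and the cluster led by Trh 59.7 and 84.6 CPM, so that the first was higher in the library labelled male and the second in the library labelled female. Inhibitory neurons of the cluster led by Lhx6 had 857.7 and 932.9 CPM of the astrocyte list, against 736.7 and 787.1 CPM in inhibitory neurons of other clusters. Nfix stood at 37.3 and 49.4 CPM in the cluster led by Lhx6, against 9.11 and 9.64 CPM in inhibitory neurons of the others.

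**Figure D2:**
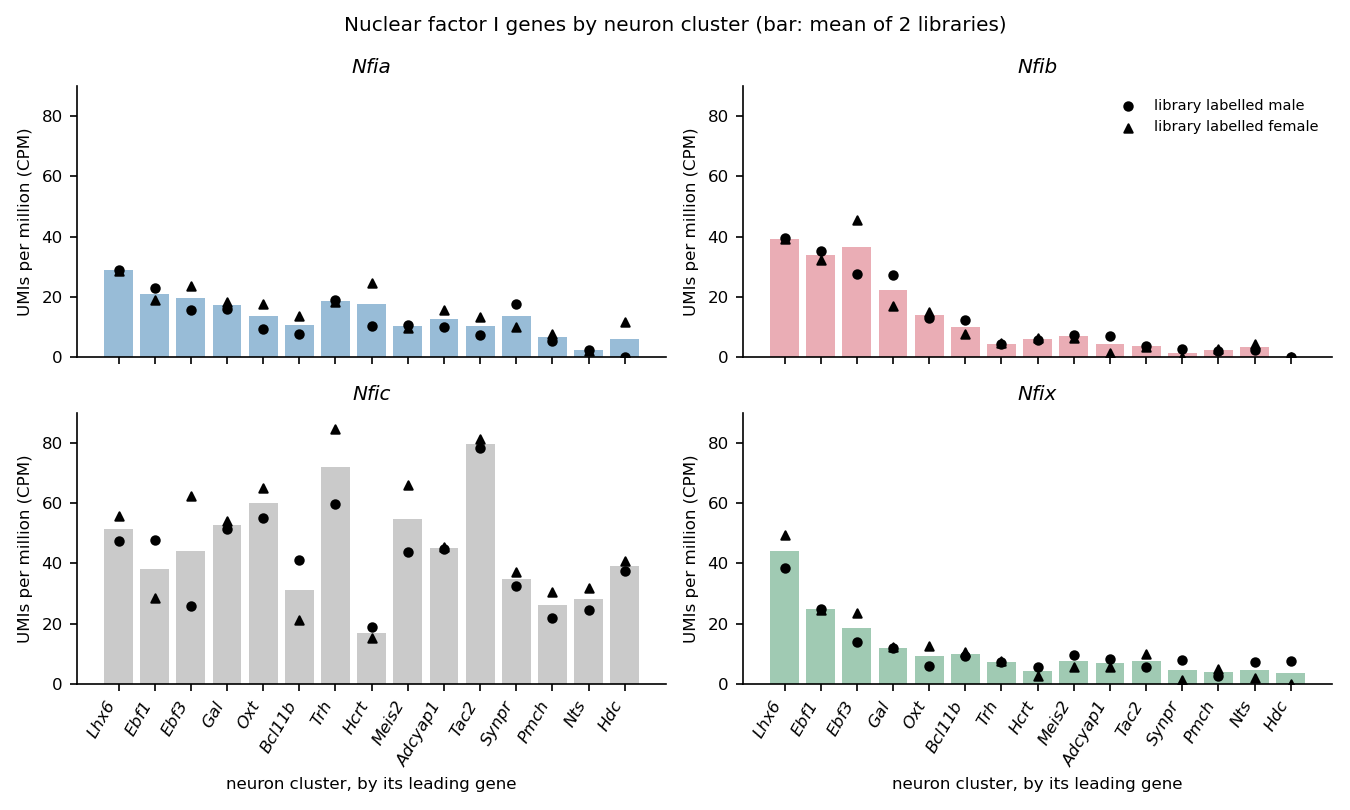
CPM of each gene (y axis) in the neuron clusters, ordered by the summed level of Nfia, Nfib and Nfix and named by their leading gene (x axis); circles are the library labelled male, triangles the library labelled female, bars their mean. The cluster led by Lhx6 has the highest mean of Nfia, Nfib and Nfix, with 38.5 and 49.5 CPM of Nfix, whereas Nfic peaks in the clusters led by Tac2 and Trh.

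Within the cluster led by Lhx6 the family was concentrated in few cells. After thinning to 3000 UMIs per neuron, 5.98% and 5.56% of its inhibitory neurons held 3 or more family UMIs, against 0.623% and 0.680% of inhibitory neurons in other clusters and 0.697% and 1.19% of excitatory neurons. The share with a single UMI was 17.6% and 18.1% there, against 14.2% and 19.6% in other inhibitory neurons. Among neurons of 3000 UMIs or more, those whose UMIs came to 0.1% or more from the 4 genes are called high below. They were 14 of 943 and 17 of 1077 inhibitory neurons, and all 14 and 16 of the 17 lay in the cluster led by Lhx6, where they made up 4.65% and 4.68% of inhibitory neurons. Their shares ran between 0.103% and 0.173% and between 0.104% and 0.224%, and the highest share among the others was 0.0997% and 0.0988%. The limit cuts a continuous range: 37 and 44 inhibitory neurons, the high ones included, lay at 0.05% or more, and 539 and 548 held no family UMI.

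The members stood at the following levels in the high inhibitory neurons that the rule chose. Nfix stood at 488 and 635 CPM in them, against 10.4 and 13.4 CPM in other inhibitory neurons. Nfib stood at 429 and 418 CPM, against 16.4 and 13.9 CPM, and Nfia at 269 and 209 CPM, against 12.9 and 14.3 CPM. These levels chose the cells and are no finding. Nfic had 101 and 85.2 CPM in high neurons, against 48.3 and 54.5 CPM in others. The balance of the members comes from the same chosen cells, so it is a description only. Over all inhibitory neurons thinned to 3000 UMIs, cells with an Nfix UMI had an Nfib UMI in 47.2% and 41.1%, against 3.75% and 4.02% of cells without one. Cells with an Nfic UMI had an Nfib UMI in 5.00% and 4.03%, against 5.47% and 6.25% of cells without one, and an Nfia UMI in 5.83% and 6.04%, against 4.25% and 4.31%.

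**Figure D3:**
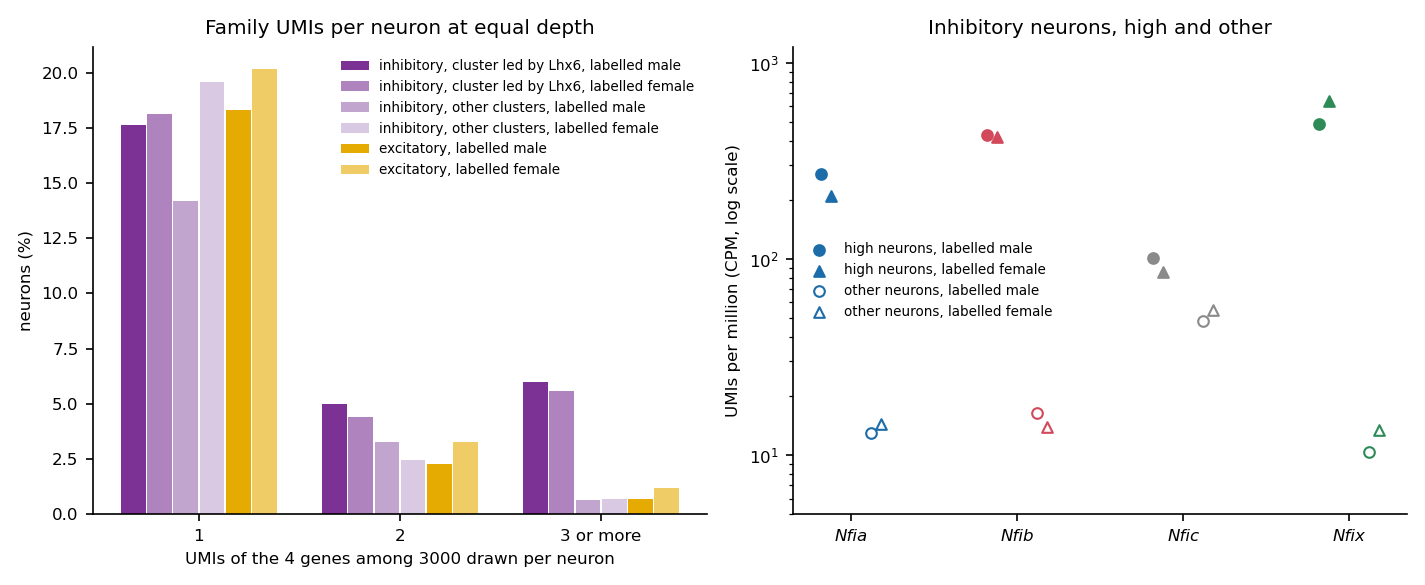
Left, percent of neurons (y axis) with 1, 2, or 3 or more UMIs of the 4 genes among 3000 UMIs drawn per neuron (x axis), by neuron group and library; 5.98% and 5.56% of inhibitory neurons of the cluster led by Lhx6 reach 3 or more. Right, CPM on a log scale (y axis) of each gene (x axis) in high (filled) and other (open) inhibitory neurons of each library. The gap is widest for Nfix and narrowest for Nfic, but UMIs of these genes chose the high neurons.

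Partner genes, all others than the 4, were tested between high and other inhibitory neurons with edgeR's quasi-likelihood test on UMIs summed per library, with the library as a block. Of 11985 genes, 162 passed a Benjamini-Hochberg adjusted p of 0.05 (1.35% of genes tested), 66 higher and 96 lower in high neurons. The median log2 difference over all genes was -0.11, and DESeq2 size factors moved it to -0.03 and the split to 82 higher and 74 lower. DESeq2's own test called 153 genes, 113 higher and 40 lower. Among the genes higher in high neurons, named by the size of their fold, were Satb1, Tcf4, St18, Lhx6, Chd7, Bhlhe22, Reln and Htr3a. Among those lower were Meis2, Zfhx3, Foxp2, Sst, Nts and Nefm. With neurons thinned to 3000 UMIs 24 genes passed, and Reln, Thrsp, Bhlhe22, Tns1, Nefm, Cadps2, Sst, Foxp2, Lhx1os and Meis2 were not among them. Without the cluster led by Lhx6, where a lower limit applies, 75 passed. Chd7, Thrsp, Satb1, Bhlhe22, Lhx6, Nefm, Cadps2 and Foxp2 were not among these 75. The high neurons there numbered 11 and 10.

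Htr3a, the subunit of an ion channel opened by serotonin, had 126 and 69.7 CPM in high neurons, against 1.43 and 0.975 CPM in other inhibitory neurons. The log2 difference was 6.20 ± 0.63 (SE; edgeR adjusted p = 5.21e-10), and rests on 15 and 9 UMIs in the high neurons. St18, a zinc finger factor, had 143 and 232 CPM in high neurons, against 12.9 and 9.75 CPM in others (log2 difference 3.98 ± 0.36, edgeR adjusted p = 6.50e-12). Reln, the secreted glycoprotein reelin, had 168 and 209 CPM in high neurons, against 13.8 and 12.4 CPM in others (3.76 ± 0.32, edgeR adjusted p = 1.32e-12). For each of these genes both libraries' high neurons lay above both libraries' other neurons. Genes were named only with 1 direction in both libraries, so this adds little.

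Tcf4, a basic helix-loop-helix factor, had the highest level of the 12 genes named as higher, with 614 and 666 CPM in high neurons, against 69.3 and 75.7 CPM in others. Its log2 difference was 3.05 ± 0.16 (SE; edgeR adjusted p = 1.81e-20). Satb1, a chromatin organizer of interneurons, had 269 and 310 CPM in high neurons, against 32.5 and 32.2 CPM in others (3.07 ± 0.24, edgeR adjusted p = 7.61e-14). Lhx6 itself, the gene that leads the cluster, had 135 and 147 CPM in high neurons, against 18.0 and 21.4 CPM in others (2.74 ± 0.36, edgeR adjusted p = 4.15e-07). Chd7, a chromatin remodeller, and Thrsp, a gene known from lipid synthesis, were 12.3-fold and 12.01-fold higher. Bhlhe22, a helix-loop-helix factor, Tns1, which encodes an adhesion protein, Card10, a signalling scaffold, and Dlx6os1, a long RNA at the Dlx5 and Dlx6 locus, were 7.86-fold, 7.69-fold, 8.80-fold and 6.01-fold higher. Dlx6os1 overlaps Dlx6 on the other strand, so its count is uncertain.

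Meis2, a homeobox factor of other GABA neurons, had 0 UMIs in the high neurons of both libraries, against 135 and 139 CPM in other inhibitory neurons. Taken against 3 counts over the group, it was at least 11.3-fold lower (edgeR adjusted p = 5.63e-07). Foxp2, a forkhead factor, and Lhx1os, an RNA next to Lhx1, were at 0 UMIs as well, at least 4.36-fold and 4.44-fold lower. Zfhx3, a homeobox factor known from birth order, had 8.42 and 15.5 CPM in high neurons, against 230 and 242 CPM in others, a ratio of 19.5 with an exact 95% counting interval of 6.68 to 94.8 (edgeR adjusted p = 1.57e-09). Sst, the somatostatin gene, had 8.42 and 15.5 CPM in high neurons, against 362 and 251 CPM in others, a ratio of 24.9 (interval 8.52 to 121). Nts, the neurotensin gene, was lower by a ratio of 20.995 (interval 5.81 to 173). Cadps2, a factor of vesicle release, and Nefm, a neurofilament subunit, were lower by ratios of 24.2 (interval 4.34 to 958) and 22.2 (interval 3.98 to 877), each from a single UMI in the high neurons.

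Markers of other cell types were summed in the same neurons. The 14 astrocyte genes summed to 917 and 790 CPM in high neurons, against 771 and 828 CPM in other inhibitory neurons, and 4 and 1 of them were at 0 in high neurons. None of the 14 passed edgeR's or DESeq2's test (1 at an unadjusted p under 0.05), with a median log2 difference of 0.12, against -0.11 over all genes. The 12 oligodendrocyte genes summed to 1305 and 1549 CPM in high neurons, against 1341 and 1709 CPM in others, and 1 of the 10 tested, Ermn, was higher, with 5 and 7 UMIs in high neurons. Of the vascular genes 3 were tested and Rgs5 was higher, on 0 and 9 UMIs in high neurons, and the vascular sum was 16.8 and 93.0 CPM in high neurons, against 34.0 and 41.3 CPM in others. No microglial gene of 5 tested passed by either tool (0 at an unadjusted p under 0.05), with 25.2 and 31.0 CPM in high neurons, against 42.3 and 44.2 CPM in others.

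**Figure D4:**
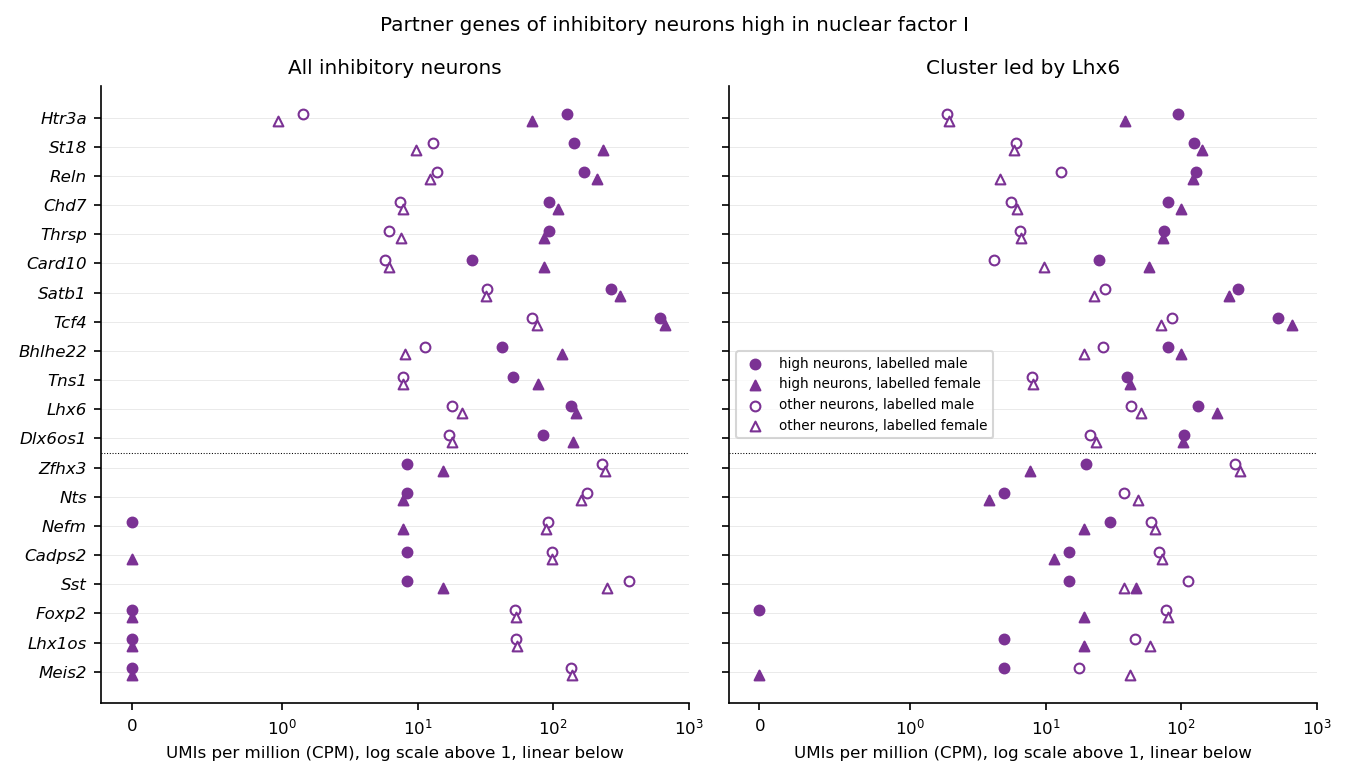
CPM (x axis, logarithmic above 1 and linear below) of the named partner genes (y axis; higher above the dotted line, lower beneath it) in high (filled) and other (open) neurons of each library (circles, labelled male; triangles, labelled female). The left panel holds all inhibitory neurons with the 0.1% limit and the right panel the cluster led by Lhx6 with a 0.05% limit; the filled points of Tcf4 reach 614 and 666 CPM on the left, and those of Meis2 lie at 0.

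Gene lists gave the following counts in high against other inhibitory neurons by edgeR's test, where 0.551% of all genes tested were higher and 0.801% lower. Of 11 tested factors of birth order and late-born programmes, Tcf4 was higher and Zfhx3 and Zfhx4 lower (Zfhx4 by 3.64-fold, edgeR adjusted p = 0.0226), and the list's median log2 difference was -1.29 with genes at 0 UMIs taken at their bound and 4 genes with no usable fold left out. Of 23 factors of GABA neuron lineages, Lhx6, Prox1 and Dlx6os1 were higher and Meis2 and Isl1 lower, with a median of -0.10. Prox1, a homeobox factor of migrating interneurons, was 3.47-fold higher (27 and 28 UMIs in high neurons). Of 19 factors of glutamate neuron lineages only Foxp2 passed, lower, and 14 of the 19 had no usable fold. None of 16 described partners and targets of the family passed edgeR's or DESeq2's test (0 at an unadjusted p under 0.05), with a median of -0.05. None of 13 early response genes passed either test, with 6 at an unadjusted p under 0.05.

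Neuropeptide genes moved one way where they passed: 7 of 25 were lower (Sst, Nts, Cartpt, Tac1, Penk, Vgf and Scg2) and 0 higher. Scg2, a granin of secretory vesicles, had 25 and 18 UMIs in high neurons and was 3.08-fold lower, and Vgf, another granin, was 5.95-fold lower. The list's median was -0.90 with bounds, and 4 genes had no usable fold. Of 8 calcium-binding protein genes, S100a10 and Pcp4 were higher, by 2.85-fold and 1.45-fold, and Calb1, calbindin, was lower by 3.51-fold. Of 8 genes of immature neurons, Cd24a was 5.33-fold higher and Nnat 2.15-fold lower. Lists were chosen with earlier results of these data known, so their counts are descriptions.

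Because nearly all high inhibitory neurons lay in 1 cluster, the comparison was repeated inside it with a 0.05% limit, a setting added after the values were seen. It set 26 and 34 high neurons, with shares of 0.0529% and 0.0532% upward, against 275 and 308 others of the same cluster, whose shares reached 0.0407% and 0.0465%. Of 10032 genes 316 passed edgeR's test (3.15% of genes tested), 160 higher (1.59%) and 156 lower (1.56%), at a median log2 difference of -0.01. This fit has 1 residual degree of freedom and relies on the spread shared by all genes. All 20 genes named by fold above kept their direction in this fit and passed here too, though Sst differed between the libraries. Of the lower genes with UMIs in the main high neurons, Nefm, Sst, Cadps2 and Nts differed less here. Their log2 differences were -1.38, -1.11, -2.44 and -3.31, against -4.56, -4.74, -4.68 and -4.49 in all inhibitory neurons. Zfhx3 stayed at -4.33, against -4.38. Meis2 had 17.65 and 42.2 CPM in other neurons of the cluster, against 135 and 139 CPM in all other inhibitory neurons. The part of the lower limit in this was not tested. The 26 and 34 high neurons include the 14 and 16 of this cluster from which the 20 genes were named, so this fit is not independent support.

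Within the cluster, Tcf4 had 522 and 653 CPM in high neurons, against 85.4 and 70.8 CPM in the rest of the cluster, and Satb1 264 and 227 CPM, against 27.4 and 22.8 CPM. Prox1 had 174 and 196 CPM in high neurons, against 23.2 and 20.5 CPM in the rest, and was 8.50-fold higher. St18, Chd7, Reln and Thrsp were 22.2-fold, 15.1-fold, 14.9-fold and 11.1-fold higher. Further genes were Aldh3b2, an aldehyde dehydrogenase (7.72-fold higher), Cox6a2, a cytochrome oxidase subunit (5.25-fold higher), and Sox5, an HMG-box factor (4.70-fold higher). Lhx6 was 3.42-fold higher, with 134 and 184 CPM in high neurons, against 42.7 and 50.7 CPM in the rest.

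On the other side, Tcf7l2, an effector of Wnt signalling, had 0 UMIs in high neurons of either library, against 61.3 and 67.7 CPM in the rest of the cluster, at least 9.96-fold lower (edgeR adjusted p = 1.74e-10). Zfhx3 had 19.9 and 7.68 CPM in high neurons, against 250 and 274 CPM in the rest (log2 difference -4.33 ± 0.33, edgeR adjusted p = 4.08e-35). Tac1, the precursor of substance P, was 12.4-fold lower, Gpr101, an orphan receptor, 7.56-fold, Ptprz1, a receptor phosphatase, 6.59-fold, and Mir124-2hg, the host of a neuronal microRNA, 5.68-fold lower. Of 9 early response genes tested, Fos, Junb, Egr1 and Jun were lower and none higher; Junb had 4.97 and 11.5 CPM in high neurons, against 89.6 and 42.2 CPM in the rest. Of 19 neuropeptide genes, Trh, Gal and Pdyn were higher and 8 lower, among them Pnoc and Tac1. For Sst the libraries went apart, with 14.9 and 46.1 CPM in high neurons, against 113 and 37.9 CPM in the rest. The astrocyte list had 801 and 872 CPM in high neurons, against 865 and 934 CPM in the rest, and 0 of 13 tested genes passed edgeR's test (1 at an unadjusted p under 0.05).

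With a stricter cell filter, which keeps at least 1000 genes and at most 10% mitochondrial UMIs per cell, clustering without the 4 genes gave a cluster of 81 and 82 neurons led by Lhx6, Bhlhe22 and Dlx6os1, with St18 and Satb1 among its 10 leading genes. Over both libraries it had 82.1 CPM of Nfia, 111 CPM of Nfib and 145 CPM of Nfix, but 51.3 CPM of Nfic. The next highest neuron cluster under that filter had 53.7 CPM of Nfix.

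Fewer than 10 excitatory neurons per library reached 0.1%, so the top 10% by share were taken there, 57 of 574 and 68 of 675 neurons. This is a looser rule: it began at 0.0253% and 0.0275%, the next neuron below had 0.0246% and 0.0273%, and the median high neuron held 2 and 3 family UMIs. Nfic was the member with the highest level in them, at 196 and 187 CPM in high neurons, against 34.8 and 47.3 CPM in others, but UMIs of the members chose these neurons. High excitatory neurons were also shallower, with medians of 6218 and 7160 UMIs, against 8203 and 8208. They held 925 and 710 CPM of the astrocyte list, against 595 and 691 CPM in others, and 0 of its 14 genes passed edgeR's or DESeq2's test (3 at an unadjusted p under 0.05). The part of depth and glial RNA in these differences was not tested.

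Of 11985 genes, 29 passed between high and other excitatory neurons (0.242% of genes tested), 18 higher (0.15%) and 11 lower (0.0918%). Tcf4 was again higher, with 150 and 193 CPM in high neurons, against 62.9 and 82.4 CPM in others (log2 difference 1.24 ± 0.15, edgeR adjusted p = 3.27e-08). Dlk1, an imprinted gene for a Notch-like membrane protein, had 549 and 580 CPM in high neurons, against 362 and 404 CPM in others (0.56 ± 0.10, edgeR adjusted p = 3.39e-04). Neurod2, a helix-loop-helix factor, was 7.17-fold higher on 8 and 13 UMIs in high neurons, and Ebf1 4.13-fold higher on 16 and 22 UMIs. Sst had 158 and 39.0 CPM in high neurons, against 337 and 323 CPM in others (-1.86 ± 0.19, edgeR adjusted p = 9.85e-10), and Foxp2 28.0 and 35.1 CPM, against 64.9 and 71.4 CPM (-1.09 ± 0.25, edgeR adjusted p = 0.0227). The call of Foxp2 did not pass with DESeq2, nor without neurons with astrocyte RNA.

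Other calls in excitatory neurons depended on few cells or on the rule. Kcna1, Pvalb, Vamp1 and Nefh, genes of fast-spiking neurons and large axons, were 2.89-fold, 2.09-fold, 1.92-fold and 1.86-fold higher, and Sparcl1, Apoe, Htr2c, Pcdh11x and Gm3764 between 1.56-fold and 2.38-fold higher. Without neurons with astrocyte RNA, Gm3764, Nefh, Htr2c and Apoe no longer passed; Gm3764 is also among the 10 leading genes of an unnamed cluster of 14 and 17 cells whose best-matching marker list is that of astrocytes. Kcna1 had 117 and 35.1 CPM in high neurons, against 21.03 and 27.4 CPM in others. Under the 0.05% limit the log2 difference of Pvalb, Vamp1 and Nefh turned negative, at -2.50, -0.51 and -1.81, and with Nfic left out of the share it was -0.03, -0.17 and -0.42. Nrgn and Col25a1 were 1.89-fold and 2.24-fold lower. Oxt, Avp, Hbb-bs and Hba-a2 were lower too, but 1 neuron held 4895 of the 4961 Oxt UMIs in the library labelled female, 1 held 527 of 644 Avp UMIs there, 1 held 928 of 1749 Hbb-bs UMIs and 1 held 552 of 938 Hba-a2 UMIs. In the library labelled male, Avp was spread wider: 4126 UMIs lay in 108 neurons, and 1 neuron held 1132 of them. Avp had 20.3 CPM in high neurons of that library, against 931 CPM in others. With neurons thinned to 3000 UMIs the log2 difference of Sst was 0.0045 and that of Tcf4 no longer passed, and without the library block 4 genes passed in all.

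The difference between high and other neurons was itself compared between the gates, with the reservation that high is set by another rule in each. Of 11985 genes 88 passed (0.734% of genes tested), 34 with the larger log2 difference in inhibitory neurons (0.284%) and 54 with the larger one in excitatory neurons (0.451%). With DESeq2 size factors the split was 43 and 43. For Tcf4 the log2 difference was 1.80 larger in inhibitory neurons (edgeR adjusted p = 3.42e-09), and for Satb1 2.36 larger (edgeR adjusted p = 2.35e-07). For Reln it was 4.01 larger (edgeR adjusted p = 3.42e-09). For Dlk1 it was 1.54 smaller in inhibitory neurons (-1.54, edgeR adjusted p = 4.04e-06). With the top 10% taken in both gates, 20 genes passed.

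By the pattern over the 14 classes and neuron groups, Nfia, Nfib and Nfix were more alike than any of them and Nfic. The Pearson r of log2(CPM + 1), taken on the mean of both libraries and given as a description, was 0.933 between Nfia and Nfib, 0.942 between Nfib and Nfix and 0.917 between Nfia and Nfix. Nfic had 0.765 with Nfia, 0.797 with Nfib and 0.754 with Nfix. Among 8053 genes, the 5 nearest to Nfia were Tob2, Eci1, Rftn2, Slc12a4 and Zcchc24 (r of 0.970 to 0.946). Those nearest to Nfib were Golim4, Ctdsp2, Rftn2, Nfix and Fermt2, to Nfic Gabpb2, Tjp1, Etfb, Snapc5 and Acadl, and to Nfix Zcchc24, Nfib, Pacsin3, Malat1 and Tcf4 (r of 0.943 to 0.936). Zcchc24 was near to both Nfia and Nfix. The points share libraries and depth, and neuron groups make up 6 of the 14.

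Promoters of the partner genes were searched for nuclear factor I motifs, because members and partners were high in the same cells. RefSeq windows in GRCm38.p6, from 250 bases before to 50 after a start, were found for 7 of the 12 higher and 6 of the 8 lower named genes and for Nfia, Nfic and Nfix. The palindrome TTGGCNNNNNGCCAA, searched on both strands, was in none of them, against 12 of 27025 genes (0.0444%). The shorter TTGGCA, searched on both strands, was in 1 of the 7 higher genes, Thrsp, in 0 of the 6 lower ones and in 0 of the 3 members, against 16.2% of all genes. The Thrsp promoter is shown because it is the only one among them with the 6 letters TTGGCA, and the half-site by itself was not searched. It lies at chr7:97417501-97417800 on the minus strand and is written 5′ to 3′ on that strand; capitals mark TTGGCA or its complement TGCCAA, which do not overlap.
Thrsp promoter: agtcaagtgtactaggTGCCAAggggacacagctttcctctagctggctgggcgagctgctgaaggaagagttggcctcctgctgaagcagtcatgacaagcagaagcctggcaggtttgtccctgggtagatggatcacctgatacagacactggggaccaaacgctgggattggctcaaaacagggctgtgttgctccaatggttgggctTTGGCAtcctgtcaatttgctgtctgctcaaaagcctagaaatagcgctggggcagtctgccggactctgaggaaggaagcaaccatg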

How the data were processed

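Each library's deposited values are raw UMI counts, one per gene and cell barcode. Cell Ranger 2.2.0 and mm10 (GRCm38) are named in the submitters' processing notes. Cell calling, annotation release and the use of strand were not given in the sources used here. Barcodes went no lower than 1987 and 2155 UMIs, so empty droplets could not serve to measure free RNA, which was read from astrocyte genes in neurons.

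Members and gene lists were chosen with earlier results of these data known. Cells had at least 500 genes and at most 20% mitochondrial UMIs. Doublets were removed by the highest Scrublet scores, at 0.8% per 1000 barcodes (90 and 110 cells). With scanpy 1.11.5, on 2000 variable genes without the 4 members, 30 components and 15 neighbours, Leiden clusters were made at resolution 1. A cluster took the class with most markers among its 10 leading genes, else the class found in most cells, given 3 markers in 25% of cells. It stayed unnamed where another lineage reached 60% of cells, or led more of these genes or 3 of them (19 and 24 cells). These naming limits were set after the clusters were seen.

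CPM were taken on UMIs summed over the cells of a group. Neurons of at least 3000 UMIs were split into high and other within the inhibitory and excitatory gates; cells with 0.3% of UMIs or more from Hcrt or Pmch were left out of both. The 8 sums were fitted with edgeR 4.0.16 (R 4.3.3): quasi-likelihood, filterByExpr, TMM, library as a block, 3 residual degrees of freedom, 2-sided, Benjamini-Hochberg over all genes with the members left out. The library block is part of the design because both arms come from the same cell suspension. Where a gate had fewer than 10 high cells per sum, the top 10% were taken. The p-values cover the spread of the difference between 2 pools of littermates, not between animals. They rest mostly on a spread shared by all genes (48.8 prior degrees of freedom, against 3 residual ones), not on each gene's own spread. Named genes are the 12 highest and 8 lowest fold changes among those called, at 50 CPM or more in the higher arm and in 1 direction in both libraries. In the excitatory gate 11 higher genes met this, so 19 were named. Genes named outside this rule come from the lists, or were chosen after their values were seen. Where a group held 0 UMIs the fold is a bound, computed with 3 counts in their place over that group. Ratios from 1 to 3 UMIs carry an exact 95% interval. Intervals cover counting error only. The fit was tested on simulated data. DESeq2 1.42.0 was an alternative.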

Additional observations from a re-analysis of the deposited data

Results flagged for a closer look

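Between inhibitory and excitatory neurons, the difference between high and other neurons differed for 8 named genes with more than 3 UMIs in each arm. The test was edgeR's test of the difference itself with Benjamini-Hochberg adjustment. Zfhx3 (log2 -4.04, inhibitory minus excitatory, adjusted p = 4.52e-06), Nts (-4.87, adjusted p = 3.40e-05), Nefm (-5.17, adjusted p = 2.24e-04) and Cadps2 (-4.40, adjusted p = 0.00382) passed as well, on 1 to 3 UMIs in high inhibitory neurons. Meis2 and Lhx1os passed too, at 0 UMIs there, so no size is given for them. The log2 difference was larger in inhibitory neurons by 4.01 for Reln (adjusted p = 3.42e-09), by 3.00 for Card10 (adjusted p = 0.0251), by 2.43 for Tns1 (adjusted p = 0.0235), by 2.36 for Satb1 (adjusted p = 2.35e-07) and by 1.80 for Tcf4 (adjusted p = 3.42e-09). Inhibitory minus excitatory, it was -3.03 for Kcna1 (adjusted p = 0.0357), -2.03 for Nefh (adjusted p = 0.0232) and -1.54 for Dlk1 (adjusted p = 4.04e-06). High neurons were set by another rule in each gate, 0.1% of UMIs in inhibitory and the top 10% in excitatory neurons. In the library labelled male, 1 excitatory neuron held 27 of 139 Kcna1 UMIs.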

How the results depend on the processing

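In inhibitory neurons 162 partner genes passed. The count was 46 with no filter on low counts, 399 at a 0.05% limit, 24 with neurons thinned to 3000 UMIs, 316 in only the cluster led by Lhx6 and 75 without that cluster. In excitatory neurons 29 passed, against 9 with DESeq2, 9 with no filter, 56 at 0.05%, 7 thinned, 249 with Hcrt-high and Pmch-high neurons kept and 87 with Nfic left out of the share. For the difference between the gates 88 passed, against 10 with no filter, 41 at 0.05%, 5 thinned and 20 with the top 10% in both gates. With no replicate block (no pairing by library) the counts were 123 in inhibitory neurons, 4 in excitatory neurons and 27 for the difference. Size factors of DESeq2, at least 6000 UMIs per neuron, the stricter cell filter, no doublet removal, the members kept among the variable genes and leaving out neurons with astrocyte RNA moved no total by over 1.5 times. The excitatory split did move, with 10 higher and 12 lower under the stricter filter and 17 higher and 19 lower without neurons with astrocyte RNA, against 18 and 11.

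Of the 20 named inhibitory genes, 10 of 19 fitted no longer passed with thinned neurons, and 3 no longer passed with DESeq2 (Nefm, Cadps2 and Meis2). Without the cluster led by Lhx6, 8 of 19 fitted no longer passed (Chd7, Thrsp, Satb1, Bhlhe22, Lhx6, Nefm, Cadps2 and Foxp2), and Tns1 changed sign. Of the 19 named excitatory genes, 14 no longer passed with DESeq2, 14 with no filter on low counts, 10 under the stricter cell filter, 18 with no replicate block and 5 without neurons with astrocyte RNA. The fitted log2 of Tns1 was -7.46 without the cluster led by Lhx6, where the high neurons held 90101 and 77255 UMIs in all. At the 7.81 and 7.80 CPM of Tns1 in other inhibitory neurons of the main comparison, such sums are too small for a usable fold. No reversal is read from it. In excitatory neurons, at 0.05% and with Nfic left out, Pvalb turned to -2.50 and -0.0294, Vamp1 to -0.513 and -0.170, and Nefh to -1.81 and -0.417, and Sst turned to 0.0045 when thinned. The cause was not tested. The family ratio of astrocyte-like over neuron-like cells was 10.8, lay between 10.1 and 11.7 when a library was left out, and was 9.70 with cells thinned to 2000 UMIs. That of inhibitory over excitatory neurons was 1.23, lay between 1.12 and 1.36 when a library was left out, and was 0.999 without the cluster led by Lhx6. Leaving out a library gives the partner tests no residual degrees of freedom, so those are values with no test, and the 0.2% limit could not be run because too few neurons reached it. The cluster-based settings, the top 10% in both gates and the share without Nfic were chosen after seeing the data.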
